A study of Homo sapiens with 6 samples.

Results

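Interferon-stimulated genes and genes of MHC class I antigen presentation were followed in HEK-293 cells that overexpressed circANRIL. The set holds 44 genes listed by symbol, and every probe that the array's annotation assigns to one of them was taken. An annotated probe was present for 43 of the 44 genes (63 probes), out of 20044 genes with a probe of 1 symbol. STAT2, which carries the interferon signal into the nucleus together with IRF9, had none, so its expression was not analysed here. HEK-293 is an established human embryonic kidney cell line. The study compared 3 arrays of cells stably transfected with a circANRIL construct (exons 5, 6 and 7 of ANRIL between flanking intron sequence, in the bicistronic pBI-CMV2 vector, which also encodes GFP) with 3 arrays of vector control cells that carried pBI-CMV2 alone. Both groups were cotransfected with a vector for neomycin resistance and selected with G418, and circANRIL is transcribed from the CMV promoter of the vector. Per the methods at least 3 lines were made per construct, but the labels do not say that each array is a separate line. The p-values therefore measure the spread between these arrays.

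Interferons are secreted proteins that cells release on sensing foreign nucleic acid. They bind cell surface receptors, activate the kinases JAK1 and TYK2 and turn on interferon-stimulated genes through STAT proteins and interferon regulatory factors. Type I interferon acts mainly through the interferon-stimulated response element (ISRE), which a complex that holds STAT2 and IRF9 binds, and interferon gamma through the gamma-activated site (GAS). The induced proteins block viruses at entry, RNA replication and assembly, and others raise the display of peptides on MHC class I.

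Promoter sequences were taken from RefSeq (GRCh38.p14) as windows of 300 bases, 250 before and 50 from the annotated start on, and 35 of the 44 members had a window. An ISRE core, searched as GAAANNGAA on both strands, was present in 20 of the 35 windows (57.1%), against 8.11% of all 35116 promoter windows. The GAS motif, searched as TTCNNNGAA, was present in 7 (20.0%), against 7.66% of all windows. Motifs may overlap each other. A GC box, GGGCGG, was found in 54.3% of the member windows and in 45.0% of all. IFITM2, which rose in the circANRIL cells, and IRF7, which fell, had no window. Below are, among the members with a window, the promoters of the 4 with an ISRE core and the largest fitted changes. They belong to MX1 and EPSTI1, which rose in the circANRIL cells, and IFI44L and IFI27, which fell. Each runs 5′ to 3′ on the strand of its gene, with ISRE cores in capitals (for MX1 the capitals span a pair of overlapping cores, and in IFI27 the first core is on the opposite strand).
MX1, chr21:41420308-41420607, plus strand: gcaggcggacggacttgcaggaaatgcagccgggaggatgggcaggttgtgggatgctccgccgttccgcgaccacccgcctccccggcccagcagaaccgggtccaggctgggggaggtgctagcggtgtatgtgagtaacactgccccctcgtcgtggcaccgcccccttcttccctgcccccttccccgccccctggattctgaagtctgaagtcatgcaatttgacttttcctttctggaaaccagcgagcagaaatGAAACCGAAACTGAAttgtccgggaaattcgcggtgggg
EPSTI1, chr13:42992192-42992491, minus strand: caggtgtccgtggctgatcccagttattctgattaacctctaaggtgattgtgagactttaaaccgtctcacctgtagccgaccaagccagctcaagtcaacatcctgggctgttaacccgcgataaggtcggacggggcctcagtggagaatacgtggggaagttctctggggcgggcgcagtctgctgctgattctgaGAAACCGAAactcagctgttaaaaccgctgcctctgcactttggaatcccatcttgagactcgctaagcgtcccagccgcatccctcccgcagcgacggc
IFI44L, chr1:78620198-78620497, plus strand: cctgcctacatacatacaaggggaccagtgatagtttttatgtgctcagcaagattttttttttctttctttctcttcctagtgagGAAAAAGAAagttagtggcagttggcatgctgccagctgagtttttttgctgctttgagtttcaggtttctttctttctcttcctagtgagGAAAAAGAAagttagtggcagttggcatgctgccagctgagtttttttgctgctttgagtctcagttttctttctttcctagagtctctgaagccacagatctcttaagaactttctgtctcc
IFI27, chr14:94110486-94110785, plus strand: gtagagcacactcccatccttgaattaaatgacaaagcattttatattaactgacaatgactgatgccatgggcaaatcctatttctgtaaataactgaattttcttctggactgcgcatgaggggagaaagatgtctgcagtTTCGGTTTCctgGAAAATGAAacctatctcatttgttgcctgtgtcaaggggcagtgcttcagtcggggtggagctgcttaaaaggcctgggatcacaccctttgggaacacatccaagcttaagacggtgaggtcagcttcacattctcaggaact

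The ISRE cores of EPSTI1 began at −50 from the annotated start, those of IFI44L at −164 and −73, those of IFI27 at −107 and −95, and those of MX1 at 12 and 18. In the IFI44L window a stretch of 85 bases that holds an ISRE core occurs a second time 91 bases on. Among members with a window, the ISRE core was found in 4 of 6 that rose, 3 of 5 that fell, 12 of 20 that were not called and 1 of 4 that were not tested (RSAD2). Promoters with an ISRE core were therefore present among members of either direction. These matches are a description of the windows, and binding was not measured.

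**Figure D1:**
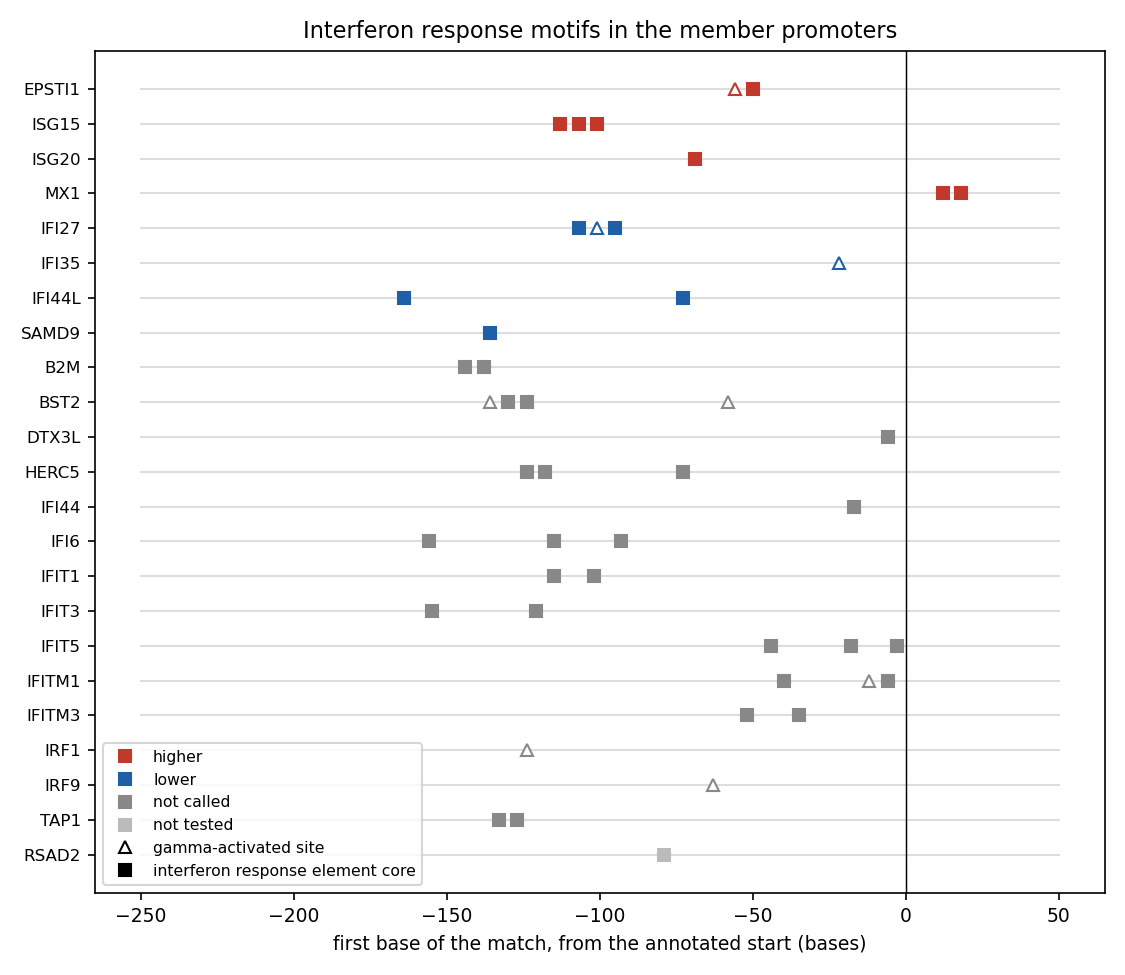
Positions of ISRE cores (filled squares) and GAS motifs (open triangles) in the promoter windows of the 23 members that hold at least 1 of them; the x axis is the distance of a match's first base from the annotated start in bases and each row is a gene, coloured by its call in the circANRIL cells. ISRE cores lie between −164 and 18 and occur in rows of higher, lower and uncalled members.

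Expression levels are log2 signals after background correction and quantile normalization, and only probes with a detection p under 0.05 on 3 or more arrays were tested. Between 43.4% and 46.8% of the 47315 probes were detected per array, and the lowest level of a detected probe was 4.60 to 4.69. Arrays correlated at 0.98 to 0.99 within a group and at 0.946 to 0.968 between groups. Of 10 genes known to be expressed in HEK-293 cells, 7 were detected on all 6 arrays, PAX2 was detected on none, and their summed level was 81.1 to 81.3 on the circANRIL arrays and 77.2 to 80.5 on the controls. Of the 8 tested genes of this list 4 were called, the neuronal intermediate filament genes NEFM (log2 fold change −5.36), INA (3.75) and NEFL (1.08) and the keratin gene KRT8 (2.30), with adjusted p = 3.0e-09, 1.3e-05, 6.8e-04 and 6.3e-05. The defining leukocyte marker PTPRC (CD45) and the endothelial markers PECAM1, VWF, CDH5 and KDR were detected on no array, while CD14, CD68 and NCAM1, 3 of the 12 leukocyte markers, were detected on all 6. CD68, a lysosomal protein of macrophages, gave 0.56 by its brighter probe and −1.03 by the other (adjusted p = 0.037 and 0.0067). The summed level of the 12 leukocyte markers was 60.4 to 61.7 on the circANRIL arrays and 61.0 to 62.3 on the controls, and that of the 9 fibroblast and endothelial markers was 39.6 to 41.7 and 41.1 to 44.5. In these lists 9 and 6 markers had no tested probe and add signal near background, so the sums say little about marker expression. The fibrillar collagen genes COL3A1 and COL1A1 fell (log2 fold change −1.67 and −0.52, adjusted p = 6.8e-04 and 0.048), COL3A1 being detected on 1 circANRIL array and on all 3 controls. The part of these shifts in the results below was not tested. The 2 probes annotated to ANRIL (CDKN2B-AS1) were detected on 1 circANRIL and 1 vector control array, so the arrays give no check of the overexpression. Slide and scan batch are not given in the sources used here. In a cell population, fewer expressing cells and less RNA per cell cannot be told apart.

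Of the 43 member genes with a probe, 37 had a tested probe, and each was represented by its brightest one. In the circANRIL cells 7 members rose (MX1, UBE2L6, EPSTI1, IFITM2, ISG15, IRF8 and ISG20), 6 fell (SP100, IFI44L, IRF7, IFI27, SAMD9 and IFI35) and 24 did not pass an adjusted p of 0.05 by limma. The members called thus made up 35.1%, against 20.7% of all 12134 genes tested, of which 11.4% were higher and 9.26% lower. Of the 45 member probes tested 7 were higher and 7 lower, against 17.7% of all probes called in either direction. The groups did not overlap for 18 of the 37 members (48.6%), against 39.3% of all genes. The median log2 fold change of the members was 0.03, and it was −0.02 over all genes, with 21 members above 0 and 16 below. The median size of the change was 0.40 for members and 0.28 for all genes. The changes thus ran both ways, around a median close to that of all genes. The members were chosen with earlier results of these data known, so their shares and sizes beside all genes cannot show an excess.

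By their brightest probes MX1, SP100 and IFI44L passed the detection filter through 1 group only and had to differ. Among the 28 members whose brightest probe was detected on all 6 arrays, 4 rose and 4 fell (28.6%), against 19.7% of the 10365 genes so detected. The median log2 fold change was 0.12 for these 28 members and −0.03 for the 10365 genes. Member levels were lower than average, with a median level of 6.20 against 7.31 for all genes. The median SD within a group was 0.24 for members and 0.21 for all genes. Vector control array 2 was the highest control for 20 of the 37 members and array 3 the lowest for 21, whereas circANRIL arrays 1, 2 and 3 were the highest of their group for 15, 9 and 13.

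**Figure D2:**
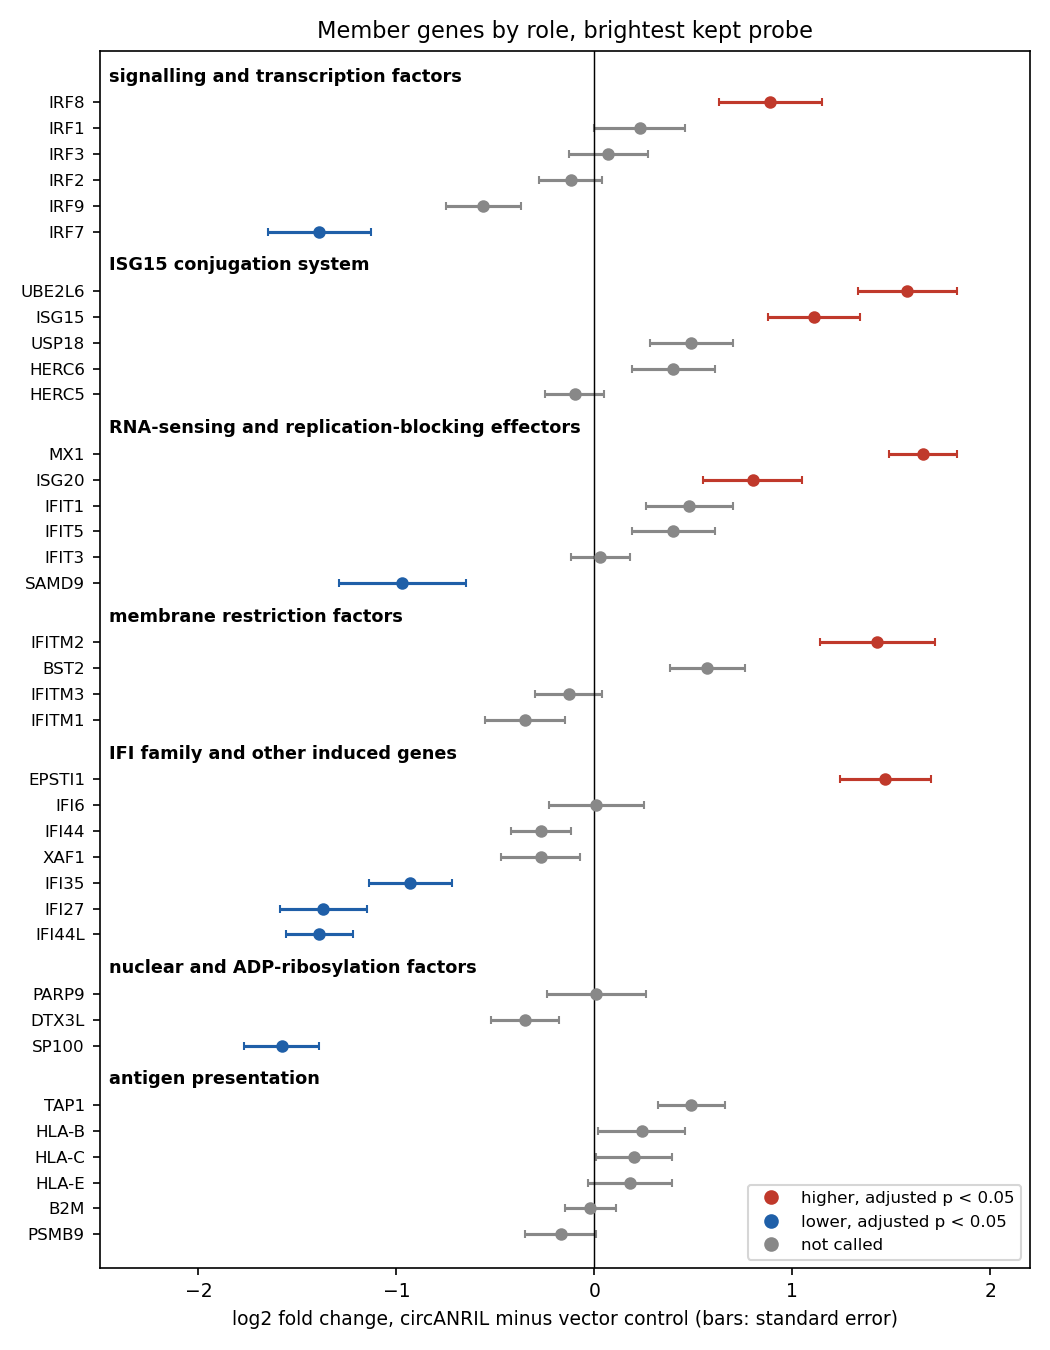
Log2 fold change of the 37 tested members (x axis, circANRIL minus vector control, bars are the standard error of the fit, n = 3 arrays per group), grouped by role; red and blue mark adjusted p under 0.05. The 7 members that rose and the 6 that fell are spread over 6 of the 7 role groups, and no antigen presentation gene was called.

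**Figure D3:**
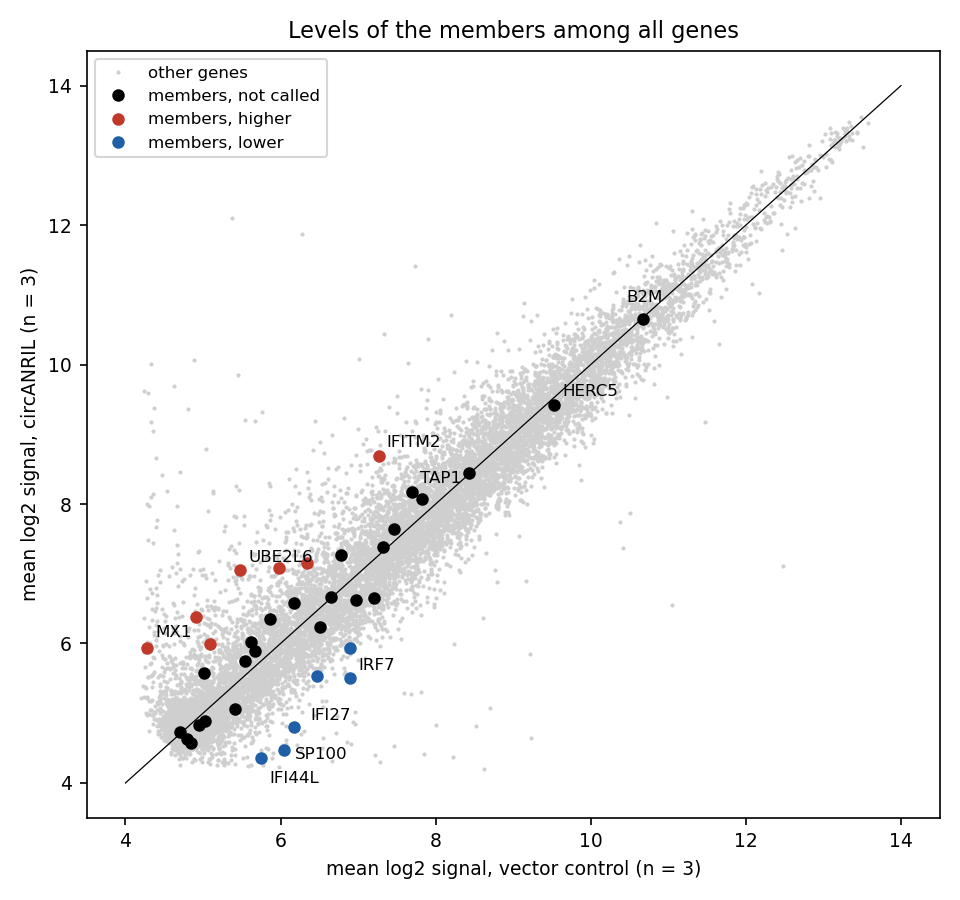
Mean log2 signal in circANRIL (y axis) against vector control (x axis) for all 12134 genes (grey) and the 37 members (black not called, red higher, blue lower), with the line of equal levels. The called members lie below a level of 9 in both groups, while B2M, the brightest member, lies on the line.

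Of 6 transcription factors of the pathway tested, IRF7 fell, IRF8 rose and IRF1, IRF2, IRF3 and IRF9 were not called. IRF7, the factor that amplifies type I interferon production, was at 5.51, 5.30 and 5.71 on circANRIL arrays 1, 2 and 3 and at 7.58, 6.53 and 6.58 on vector control arrays 1, 2 and 3, the order used for every gene below. All circANRIL arrays lay below all controls, and vector control array 1 was the highest. The log2 fold change was −1.39 ± 0.26 (SE, n = 3 per group, adjusted p = 0.0014 by limma). A second IRF7 probe was not detected on any circANRIL array and was at 5.71, 4.80 and 5.45 in the controls, at least 1.57-fold lower (adjusted p = 0.0026). It passed the filter through the controls alone, had to differ and gives the fall no support. The remaining IRF7 probe was not tested.

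IRF8, a factor best known from myeloid and B cells, was at 5.74, 5.64 and 6.59 in the circANRIL cells and at 5.51, 5.16 and 4.62 in the controls, where it was not detected on array 3. The groups did not overlap, but circANRIL array 3 and vector control array 3 lay apart from their groups. Its log2 fold change was 0.89 ± 0.26 (adjusted p = 0.027). The call was lost without circANRIL replicate 3 (0.59, adjusted p = 0.15) and without vector control replicate 3 (0.66, adjusted p = 0.11), within a range of 0.015 to 0.26 over all alternatives.

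IRF9, the DNA-binding partner of STAT2, was at 6.84, 6.48 and 6.62 in circANRIL cells and at 7.24, 7.18 and 7.21 in controls. All 3 circANRIL values lay below the controls, but the difference of −0.56 ± 0.19 did not pass the threshold (adjusted p = 0.051). IRF1, an activator induced by interferon gamma, differed by 0.23, and IRF3, which acts directly downstream of nucleic acid sensors, differed by 0.07. Neither passed the test (adjusted p = 0.54 and 0.84). IRF2, a repressor that competes with IRF1, gave −0.12 by its brighter probe and 0.25 by the other, with adjusted p = 0.66 and 0.31.

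In the ISG15 conjugation system, in which the ubiquitin-like ISG15 is attached to proteins, 2 of 5 members rose and none fell. ISG15 itself was at 6.59, 7.26 and 7.41 in the circANRIL cells and at 5.82, 5.97 and 6.15 in the controls. Every circANRIL array lay above every control, and circANRIL array 1 was the lowest of its group. ISG15 rose by a log2 fold change of 1.11 ± 0.23 (2.15-fold, adjusted p = 0.0033).

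UBE2L6, the conjugating enzyme that transfers ISG15, was at 6.98, 7.37 and 6.80 against 5.47, 5.99 and 4.96 by its brightest probe. The groups did not overlap, with control array 3 the lowest. The log2 fold change was 1.58 ± 0.25 (2.99-fold, adjusted p = 4.3e-04). A second, dimmer UBE2L6 probe differed in direction, at 4.65, 4.87 and 4.88 against 5.14, 5.02 and 5.16 (log2 fold change −0.30 ± 0.16, adjusted p = 0.21), and the remaining probe was not tested. The UBE2L6 rise thus rests on 1 of 2 tested probes.

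HERC5, the main human ligase for ISG15, was among the brightest members, at 9.28, 9.53 and 9.46 against 9.43, 9.73 and 9.42, and did not pass the test (−0.10 ± 0.15, adjusted p = 0.69). HERC6, its paralog, differed by 0.40 (adjusted p = 0.20), and USP18, the protease that removes ISG15 and dampens receptor signalling, by 0.49 (adjusted p = 0.12). The groups overlapped for all 3 genes.

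Of 11 effectors that sense viral RNA or block replication, 6 were tested, of which MX1 and ISG20 rose and SAMD9 fell. MX1, a dynamin-like GTPase that traps viral ribonucleoprotein, was at 5.77, 5.94 and 6.10 in the circANRIL cells. It was not detected on any control array, where its measured level was 4.24, 4.36 and 4.23. MX1 was at least 2.46-fold higher in the circANRIL cells, against the lowest detected level of each control array (adjusted p = 4.8e-06), as lower bounds are computed throughout. It passed the filter through the circANRIL arrays alone and had to differ. Both overlapping ISRE cores of its window lie just after the annotated start.

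ISG20, an exonuclease that degrades single-stranded RNA, was at 6.66, 7.23 and 7.55 against 6.13, 6.82 and 6.09. The groups overlapped, since control array 2 lay above circANRIL array 1. Its log2 fold change of 0.80 ± 0.25 (adjusted p = 0.038) lost the call in 8 of 15 alternatives. These included leaving out circANRIL replicate 2 (0.76) or 3 (0.60) or vector control replicate 1 (0.69) or 3 (0.67), with adjusted p from 0.013 to 0.26 over all alternatives.

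SAMD9, a cytoplasmic restriction factor against poxviruses, was at 6.85, 5.53 and 5.41 against 6.81, 7.37 and 6.51. CircANRIL array 1 read as high as the controls, and arrays 2 and 3 lay below them. The log2 fold change was −0.97 ± 0.32 (adjusted p = 0.046), and the call was lost in 10 of 15 alternatives (adjusted p 0.0030 to 0.33). Among these were leaving out circANRIL replicate 2 (−0.77) or 3 (−0.71) or vector control replicate 1 (−1.01) or 2 (−0.73).

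The IFIT proteins bind viral RNA that lacks the marks of host messenger RNA. IFIT1 differed by 0.48 (adjusted p = 0.14), IFIT5 differed by 0.40 (adjusted p = 0.19) and IFIT3 by 0.03 (adjusted p = 0.93). None of the 3 was called, and their groups overlapped. IFIT2 was detected on 1 array and was not tested. MX2, the MX1 paralog active against HIV-1, RSAD2 (viperin) with its neighbour CMPK2, which together make an antiviral nucleotide, and TRIM22, a ubiquitin ligase, were detected on no array.

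Of the 4 membrane restriction factors, IFITM2 rose and IFITM1, IFITM3 and BST2 were not called. The IFITM proteins stiffen membranes against viral fusion. IFITM2 was at 8.94, 8.61 and 8.53 in circANRIL cells and at 8.19, 6.83 and 6.77 in controls. The groups did not overlap, and control array 1 stood more than a log2 unit above the other two. The log2 fold change was 1.43 ± 0.29 (2.69-fold, adjusted p = 0.0028). IFITM1 was lower on every circANRIL array (6.81, 6.36 and 6.70 against 6.86, 7.03 and 7.02), but the difference of −0.35 ± 0.20 did not pass the test (adjusted p = 0.25). IFITM3 was near the detection limit, detected on 5 arrays, and differed by −0.13 (adjusted p = 0.66). The 3 IFITM genes are close paralogs, and cross-hybridization between them was not tested. BST2 (tetherin), which holds budding virus on the cell, was at 5.62, 5.33 and 5.80 against 5.27, 4.84 and 4.95, without overlap but short of the threshold (0.57 ± 0.19, adjusted p = 0.051).

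In the group of IFI genes and other induced genes, IFI44L, IFI27 and IFI35 fell and EPSTI1 rose, of 7 tested. IFI44L, a marker gene of the type I interferon response, was at 5.57, 5.82 and 5.87 in the controls by its brightest probe. That probe was not detected on any circANRIL array, where it measured 4.51, 4.28 and 4.30. By that probe IFI44L was at least 2.12-fold lower (adjusted p = 3.2e-05). The probe passed the filter through the controls alone and had to differ. A second IFI44L probe was detected on circANRIL arrays 2 and 3 and on all 3 controls. It was at 4.42, 5.06 and 4.79 against 5.27, 5.14 and 5.02 (log2 fold change −0.39 ± 0.18), in the same direction but not called (adjusted p = 0.16). IFI44, the neighbour of IFI44L, was detected on 1 circANRIL array and all 3 controls and differed by −0.27 (adjusted p = 0.23).

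IFI27, another gene strongly induced by type I interferon, was at 4.91, 4.79 and 4.72 against 5.67, 6.47 and 6.39. All circANRIL arrays lay below all controls, and control array 1 was the lowest control. IFI27 fell by 1.37 ± 0.22 on the log2 scale (adjusted p = 4.2e-04). IFI35, a leucine zipper protein, was at 5.76, 5.42 and 5.42 against 6.67, 6.63 and 6.10, and fell by 0.93 ± 0.21 (adjusted p = 0.0064). Its groups did not overlap either.

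EPSTI1, an interferon-responsive gene first described in breast epithelium, went the other way. It was at 6.60, 6.49 and 6.06 in circANRIL cells and at 4.96, 5.30 and 4.49 in controls, where array 3 was below detection. The groups did not overlap. EPSTI1 rose by a log2 fold change of 1.47 ± 0.23 (2.77-fold, adjusted p = 3.4e-04). IFI6, a mitochondrial and endoplasmic reticulum protein, was bright and differed by 0.01 by one probe and −0.41 by the other (adjusted p = 0.98 and 0.18). XAF1, an antagonist of the apoptosis inhibitor XIAP, differed by −0.27 and 0.11 (adjusted p = 0.39 and 0.72). The probes of IFI6 and XAF1 did not share a direction, and neither gene was called.

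Among the nuclear and ADP-ribosylation factors, SP100 fell and PARP9 and DTX3L were not called. SP100, a component of PML nuclear bodies, was at 5.69, 6.16 and 6.30 in the controls and was not detected on any circANRIL array (4.60, 4.44 and 4.36 as measured). It was at least 2.60-fold lower (adjusted p = 3.2e-05), but its probe passed the filter through the controls alone and had to differ. The other 2 SP100 probes were below the filter. PARP9 and DTX3L form a ubiquitin ligase complex and are neighbours that share a promoter region. PARP9 differed by 0.01 and 0.49 by its probes (adjusted p = 0.98 and 0.12), and DTX3L by −0.35 (adjusted p = 0.17), with levels of 4.95, 5.14 and 5.09 against 5.38, 5.47 and 5.38 that did not overlap.

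**Figure D4:**
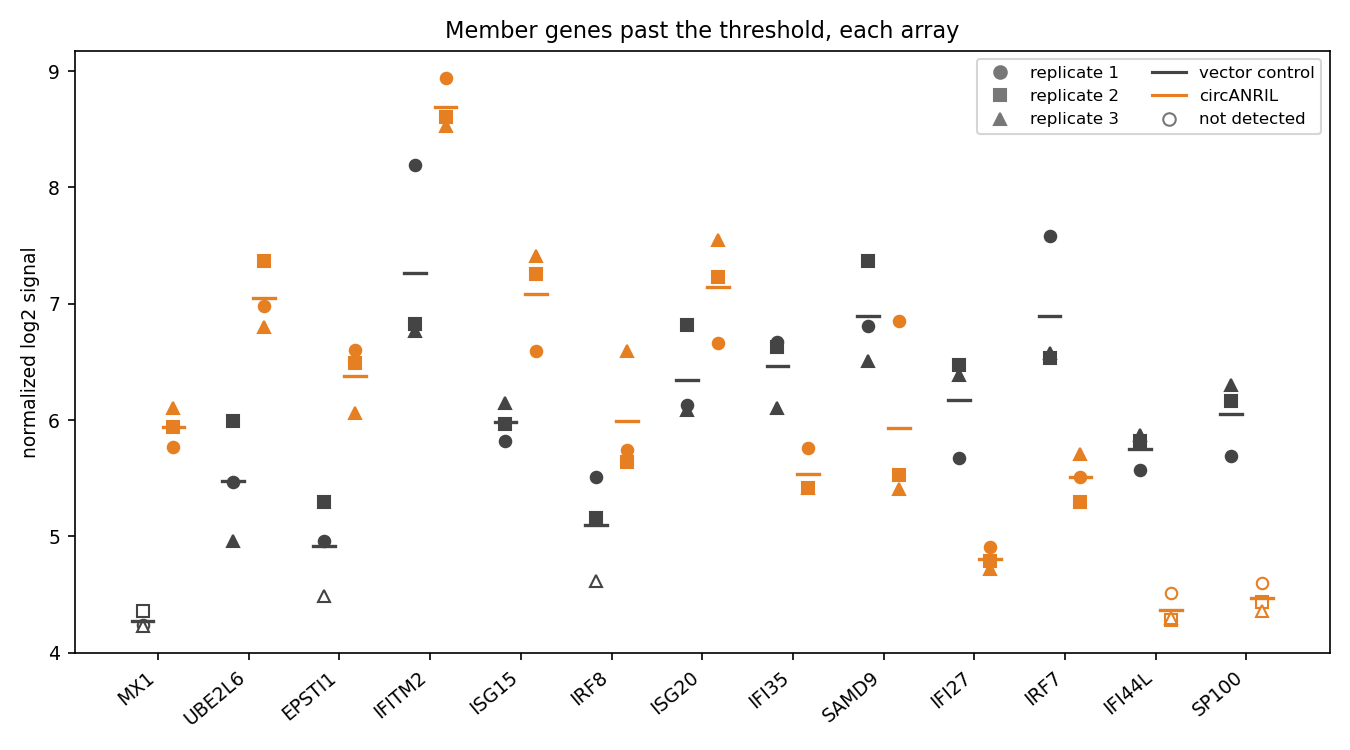
Normalized log2 signal (y axis) of the 13 called members (x axis) on each array; orange is circANRIL, grey is vector control, symbol shape is the replicate number, horizontal bars are group means (n = 3) and open symbols are arrays on which the probe was not detected. The groups separate for all but ISG20 and SAMD9, and MX1, IFI44L and SP100 have 1 group below detection.

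No antigen presentation gene was called. These proteins cut peptides (PSMB8 and PSMB9, subunits of the immunoproteasome), pump them into the endoplasmic reticulum (TAP1) and display them (B2M with HLA-B, HLA-C and HLA-E). B2M, the invariant light chain, was at 10.49, 10.75 and 10.74 against 10.58, 10.73 and 10.72, a difference of −0.02 ± 0.13 (adjusted p = 0.93), and a second probe gave −0.06 (adjusted p = 0.82). TAP1 was at 8.18, 8.03 and 8.33 against 7.75, 7.75 and 7.58, above the controls on all 3 arrays, but did not pass the threshold (0.49 ± 0.17, adjusted p = 0.063). HLA-B, a classical heavy chain, was at 8.05, 8.07 and 8.09 against 7.99, 8.21 and 7.27, with control array 3 the lowest (0.24, adjusted p = 0.48). HLA-C, also classical, and HLA-E, the ligand of the NKG2A receptor, differed by 0.20 and 0.18 (adjusted p = 0.50 and 0.60). PSMB9 was detected on 1 circANRIL array and all 3 controls and differed by −0.17 (adjusted p = 0.57), and no PSMB8 probe was tested.

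Genes that neighbour the members in the pathway were read from further lists. No probe of the 21 interferon genes passed the detection filter. Of 14 tested genes of the receptors and the JAK-STAT chain, 2 rose and 1 fell by their brightest probes. These calls made up 21.4%, against 20.7% of all genes. PTPN2 was not called by its brightest probe (−0.30, adjusted p = 0.30). Its dimmer kept probes were called lower (−0.72 and −0.66, adjusted p = 0.036 and 0.020). IFNAR1, a chain of the type I interferon receptor, was at 7.09, 6.64 and 7.13 against 7.69, 8.05 and 7.70 and fell by 0.86 ± 0.20 (adjusted p = 0.0075), a call lost without circANRIL replicate 2 (−0.70, adjusted p = 0.057, range over alternatives 0.0026 to 0.11). IFNLR1, a chain of the type III interferon receptor, rose by 0.86 ± 0.20 by one probe (adjusted p = 0.0082; 0.74 and adjusted p = 0.050 without circANRIL replicate 3, range 0.0077 to 0.11), while its other probe was not called. PTPN6, the phosphatase SHP-1, which damps JAK signalling in blood cells, was detected only on the circANRIL arrays and was at least 1.65-fold higher (adjusted p = 0.0012), but it passed the filter through that group alone and had to differ. By their brightest probes, the other receptor chain IFNAR2 (−0.02) and the kinases JAK1 (−0.07) and TYK2 (0.08) did not pass the test (adjusted p = 0.95, 0.84 and 0.76).

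Of 18 tested interferon-stimulated genes outside the set, 3 rose and 1 fell (22.2%, against 20.7% of all genes). PARP14, a macrodomain ADP-ribosyltransferase, was detected only on the circANRIL arrays (5.91, 6.21 and 6.36) and was at least 2.87-fold higher (adjusted p = 4.1e-06). It too passed the filter through that group alone and had to differ. IRF5, a further interferon regulatory factor, was at 5.41, 5.86 and 6.02 against 4.62, 4.78 and 4.39, where control array 3 was below detection and the others were near the limit, and rose by 1.17 ± 0.20 (adjusted p = 6.3e-04). LGALS3BP, a secreted glycoprotein, was at 8.15, 7.96 and 7.52 against 7.62, 5.72 and 5.96, so that control array 1 overlapped the circANRIL arrays, as for IFITM2 the highest control (1.44 ± 0.36, adjusted p = 0.011). That call was lost without circANRIL replicate 1 (1.31, adjusted p = 0.052) or 2 (1.40, adjusted p = 0.051; range 2.6e-05 to 0.25). LAP3, a leucine aminopeptidase, fell by 0.69 ± 0.15 (adjusted p = 0.0050).

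None of the 7 tested genes of class I assembly outside the set was called. TAP2, the partner of TAP1 in the peptide pump, differed by −0.47 and TAPBP (tapasin), which loads peptides, by 0.52 by their brighter probes (adjusted p = 0.12 and 0.12). TAP2 passed with median scaling (−0.62, adjusted p = 0.043). Without vector control replicate 1 both passed (−0.67 and 0.77, adjusted p = 0.027 and 0.024; ranges over alternatives 0.027 to 0.36 and 0.024 to 0.32). Of 8 proteasome partners, 1 rose and 1 fell (25%, against 20.7% of all genes). PSME1, a chain of the PA28 activator, rose by 0.65 ± 0.15 (adjusted p = 0.0067). PSMB5, the constitutive subunit that PSMB8 replaces, fell by 0.55 ± 0.16 (adjusted p = 0.029), a call lost in 7 of 15 alternatives (adjusted p 0.0071 to 0.24), among them leaving out circANRIL replicate 2 (−0.50) or 3 (−0.44) or vector control replicate 1 (−0.51) or 3 (−0.43). None of 7 tested MHC class II genes was called.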

How the data were processed

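The authors preprocessed bead-level data of Illumina HumanHT-12 v4 BeadChips in GenomeStudio (version 2011.1). The deposited table holds an intensity per probe and array, on the linear scale and background-subtracted, and a detection p-value, which the authors' software made. The authors' second table, of normalized intensities, was an alternative. Here neqc of limma 3.58.1 (in R 4.3.3) corrected the background from those detection p-values with an offset of 16, quantile-normalized the signals and took log2, which shrinks changes of dim probes. A kept probe had a detection p under 0.05 on at least 3 arrays (21191 of 47315). Gene symbols came from the platform annotation, and were updated through their gene identifiers with a gene table of GRCh38.p14 (30071 of 30110 probes with 1 symbol). Groups of 3 arrays were compared with lmFit and eBayes with an intensity trend, two-sided, and p was adjusted over all kept probes (Benjamini-Hochberg, threshold 0.05). The brightest kept probe stood for a gene. The fit was tested on simulated data.

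The members and lists were chosen with earlier results of these data known. Full values are given for tested members past the threshold or detected in 1 group only. Other tested members are named with their difference, among them IRF2, IFI6 and XAF1, whose probes disagree in direction. Of each neighbouring list up to 3 genes per direction with the smallest adjusted p are named, besides JAK1, TYK2, IFNAR1, IFNAR2, TAP2 and TAPBP. IRF9, BST2, TAP1, IFITM1, HERC5, HLA-B, B2M and DTX3L were given per-array values after their values were seen. PTPN2 and the genes of the cell type lists were likewise named after theirs were seen. No batch term could be fitted. A planned comparison of the IFITM proteins was not made. Alternatives were another offset, a floored background, median scaling, the authors' normalized values, stricter and no detection filters, the methods' t-test, the replicate number as a block, no intensity trend, the dimmest kept probe per gene and leaving out each array.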

Additional observations from a re-analysis of the deposited data

How the results depend on the processing

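No result changed direction while called. The counts of members were 7 higher and 6 lower, and leaving out 1 array gave 5 to 7 and 4 to 6. With a detection p under 0.01 on all 6 arrays 4 members were higher and 4 lower, of 24 tested, and with the methods' t-test 1 was higher and 1 lower. Over all probes 1965 were higher and 1788 lower. The t-test gave 281 and 203, leaving out 1 array gave 1228 to 1801 and 907 to 1511 (the lowest without circANRIL replicate 2, and 1252 and 929 without circANRIL replicate 3), and median scaling gave 3048 lower. Median scaling moved the median of all genes from −0.02 to −0.13 and split the gene calls 1024 higher to 1935 lower, against 1382 to 1124, and called 6 members higher and 7 lower. The members' median of 0.03 was −0.06 with median scaling. It was 0.19 with the stricter detection filter, against −0.02 for all genes so tested. With 1 array left out it was −0.00 to 0.11 (0.11 without vector control replicate 2). Setting MX1, SP100 and IFI44L to their bounds left it at 0.03. That outcome was fixed in advance, since none of them crosses the median at its bound. With the replicate block 7 members were higher and 6 lower, the same 13 genes. The deviations of same-numbered arrays correlated at 0.0026, 0.082 and −0.13, and only number 2 had its own number as best partner. So few correlations cannot decide whether the numbers pair the arrays, and the labels do not say what a number marks. The called members other than IRF8, ISG20 and SAMD9 kept their call by the brightest probe in every alternative that tested them except the t-test, which kept MX1 and IFI44L. The brightest probes of MX1 and IFI44L passed the detection filter through 1 group only and had to differ, so their calls under the t-test add no support. IRF8 also lost it with a floored background and with no detection filter. The second IRF7 probe also lost it with a floored background (adjusted p = 0.059, range 1.9e-04 to 0.14). With the authors' normalized values, which hold background, the changes were smaller, at 0.63 for MX1 and −0.58 for SP100. Signals near background limit the dim members, and with 3 arrays per group a small change can go uncalled.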
